A study of Homo sapiens with 12 samples.

Results

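The let-7 family without let-7e is described here in human acute myeloid leukemia (AML) cells. The 8 members, chosen by name, were the 5p arms hsa-let-7a-5p, hsa-let-7b-5p, hsa-let-7c-5p, hsa-let-7d-5p, hsa-let-7f-5p, hsa-let-7g-5p and hsa-let-7i-5p, with hsa-miR-98-5p. They are 8 of the 1204 mature miRNAs that were counted, and all 8 passed the filter on low counts that left 659 miRNAs to test. The libraries came from the human AML lines MV4-11 and Molm-14, which both carry the internal tandem duplication of FLT3. What separates the lines cannot be told apart from what separates their cultures. In MPC1 KO cells a lentiCRISPRv2 construct with a GFP marker carried a single guide against MPC1, whose product forms part of the carrier that brings pyruvate into mitochondria, and EV cells carried the nontargeting Empty Vector. Each of the 4 groups (MV4-11 EV, MV4-11 MPC1 KO, Molm-14 EV and Molm-14 MPC1 KO) had 3 libraries, 12 in all. The study asked how a block in pyruvate entry into mitochondria alters miRNAs.

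A miRNA is cut from a hairpin transcript as a duplex of a 5p and a 3p arm, of which one usually stays bound to Argonaute and guides it to messenger RNAs through its seed, bases 2 to 8. The let-7 family is among the most conserved miRNA families of animals, rises as cells differentiate, and represses RAS genes, MYC, HMGA2 and LIN28. LIN28 in turn binds the loop of let-7 hairpins and blocks their maturation, and let-7 is regarded as a tumour suppressor in many cancers, blood cancers included.

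The mature sequences show why the members are 1 family and why their counts need care. They are printed from RefSeq (GRCh38.p14), 5′ to 3′, with the seed in capitals.

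hsa-let-7a-5p: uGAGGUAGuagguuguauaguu
hsa-let-7b-5p: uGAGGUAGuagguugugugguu
hsa-let-7c-5p: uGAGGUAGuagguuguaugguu
hsa-let-7d-5p: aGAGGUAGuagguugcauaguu
hsa-let-7f-5p: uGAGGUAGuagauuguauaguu
hsa-let-7g-5p: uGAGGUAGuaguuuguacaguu
hsa-let-7i-5p: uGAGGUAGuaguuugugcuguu
hsa-miR-98-5p: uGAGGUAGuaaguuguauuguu

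All 8 have the seed GAGGUAG and a length of 22 bases, so that their counts need no correction for length. Whether other differences in sequence affect how fully each member was counted was not tested. Outside the seed, with positions counted from 1 at the 5′ end and the base of let-7a-5p given first, let-7b-5p differs from let-7a-5p at A17G and A19G, let-7c-5p at A19G, let-7d-5p at U1A and U16C, and let-7f-5p at G12A. The other members differ at G12U and U18C (let-7g-5p), at G12U, A17G, U18C and A19U (let-7i-5p) and at G11A and A19U (miR-98-5p). Over the 28 pairs of members the number of differences ran from 1 to 6. 3 pairs were 1 base apart, namely let-7a with let-7c, let-7a with let-7f, and let-7b with let-7c. RefSeq lists 11 mature miRNAs with this seed. The others are let-7e-5p, miR-4500, for which no count was analysed here, and miR-4458, which had between 0 and 9 counts in a library and was not tested.

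The 8 members come from 11 hairpins. An exact search of both strands of GRCh38 found let-7a-5p at 3 places (chromosomes 9, 11 and 22), let-7f-5p at 2 (chromosomes 9 and X) and each of the other 6 members at 1. MIRLET7A1 (chr9:94175957-94176036), MIRLET7F1 (chr9:94176347-94176433) and MIRLET7D (chr9:94178834-94178920) lie together in exons of the lncRNA gene MIRLET7A1HG. MIRLET7A3 (chr22:46112749-46112822) and MIRLET7B (chr22:46113686-46113768) lie 863 bp apart in exons of the lncRNA gene MIRLET7BHG. MIRLET7C (chr21:16539828-16539911) lies in an exon of the lncRNA gene MIR99AHG, 659 bp from MIR99A, and MIRLET7A2 (chr11:122146522-122146593) in an intron of the lncRNA gene MIR100HG, 5636 bp from MIR100. MIRLET7F2 (chrX:53557192-53557274) and MIR98 (chrX:53556223-53556341) share an intron of HUWE1, a protein-coding gene for a ubiquitin ligase. MIRLET7G (chr3:52268278-52268361) lies in an intron of WDR82, also protein-coding, and MIRLET7I (chr12:62603686-62603769) in an intron of the lncRNA gene MIRLET7IHG that is also an exon of an unnamed lncRNA gene. MIRLET7G, MIRLET7A2, MIRLET7F2 and MIR98 are on the minus strand and the other 7 on the plus strand.

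The hairpins of let-7b, let-7c and let-7d are shown because the differences described below fall on them. The mature 5p arm is in capitals.

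MIRLET7B: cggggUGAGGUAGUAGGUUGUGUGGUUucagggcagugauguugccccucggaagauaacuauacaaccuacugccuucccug
MIRLET7C: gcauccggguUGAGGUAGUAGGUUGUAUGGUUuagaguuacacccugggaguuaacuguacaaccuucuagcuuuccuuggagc
MIRLET7D: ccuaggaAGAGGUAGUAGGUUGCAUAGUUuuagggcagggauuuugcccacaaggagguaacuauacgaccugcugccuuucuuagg

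The letters GGAG, the motif that LIN28 is known to contact, stand after the 5p arm in 8 of the 11 hairpins, MIRLET7C and MIRLET7D among them, and not in MIRLET7A3, MIRLET7B or MIR98. Of all 1562 hairpins that RefSeq lists, 43.4% hold these letters somewhere on the given strand. A match is a description of the letters only.

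The libraries had between 3870104 and 8683456 counts, with a median of 5107200, and each library's 95% Clopper-Pearson interval for the family share was at most 0.036 percentage points to either side, which covers counting error only. Whether the 3 libraries of a group are separate cultures is not stated in the labels, so that p-values measure the spread between these libraries, which may be technical. Of the 4 blood markers, miR-142-3p, miR-142-5p and miR-223-3p had at least 10219 counts in every library and miR-150-5p, a lymphocyte miRNA, at most 18. As CPM of the library total, the 2 stromal markers summed to 532 to 763 in MV4-11 libraries and to 97.4 to 195 in Molm-14 libraries, and the 3 epithelial markers to 211 to 274 and to 102 to 138. Some of these sums also did not overlap between EV and MPC1 KO. Of all single miRNAs tested, 17.5% did not overlap in MV4-11 and 27.2% in Molm-14 by scaled CPM, in either direction. The epithelial sum was 211 to 232 in EV and 246 to 274 in MPC1 KO of MV4-11, and 102 to 115 and 123 to 138 in Molm-14. It was nearly all miR-200c-3p, with 101 to 269 CPM over the libraries, against 0.572 to 5.19 for miR-141-3p and 0 to 0.403 for miR-205-5p. In Molm-14 the stromal sum was 169 to 195 in EV and 97.4 to 100 in MPC1 KO and the blood sum 52600 to 58400 and 60400 to 62600, whereas both overlapped in MV4-11. The part of these markers in the differences between lines and between EV and MPC1 KO given below was not tested.

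The family took a large share of every library. In MV4-11 EV the 8 members held 13.0%, 13.1% and 13.8% of all miRNA counts (mean 13.3% ± 0.462, SD, n = 3), and in MV4-11 MPC1 KO 14.2%, 14% and 14.4% (14.2% ± 0.222, SD, n = 3). In Molm-14 EV they held 16.7%, 15.9% and 16.2% (16.3% ± 0.421, SD, n = 3), and in Molm-14 MPC1 KO 16.6%, 15.2% and 15.5% (15.8% ± 0.712, SD, n = 3). All 6 Molm-14 libraries lay above all 6 MV4-11 libraries. As a share, this separation depends on the total. Without miR-21-5p, the most abundant miRNA, the shares ran from 17.1% to 18.1% in MV4-11 and from 17.5% to 19.7% in Molm-14, and the lines overlapped, as did EV and MPC1 KO within MV4-11. Within MV4-11 the 3 libraries with MPC1 KO lay above those with EV, but only as a share of the raw total. In CPM scaled by the trimmed mean of M-values (TMM CPM), which corrects for differences in library composition, the family summed to 132171 ± 4555 in EV and 134567 ± 4776 in MPC1 KO (SD, n = 3 each) and the groups overlapped. In Molm-14 these sums were 169443 ± 5486 and 161021 ± 3804 (SD, n = 3 each), with overlap as well. Between the lines the TMM CPM sums did not overlap, with 129052 to 137430 in the 6 MV4-11 libraries and 156921 to 175195 in the 6 Molm-14 libraries.

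**Figure D1:**
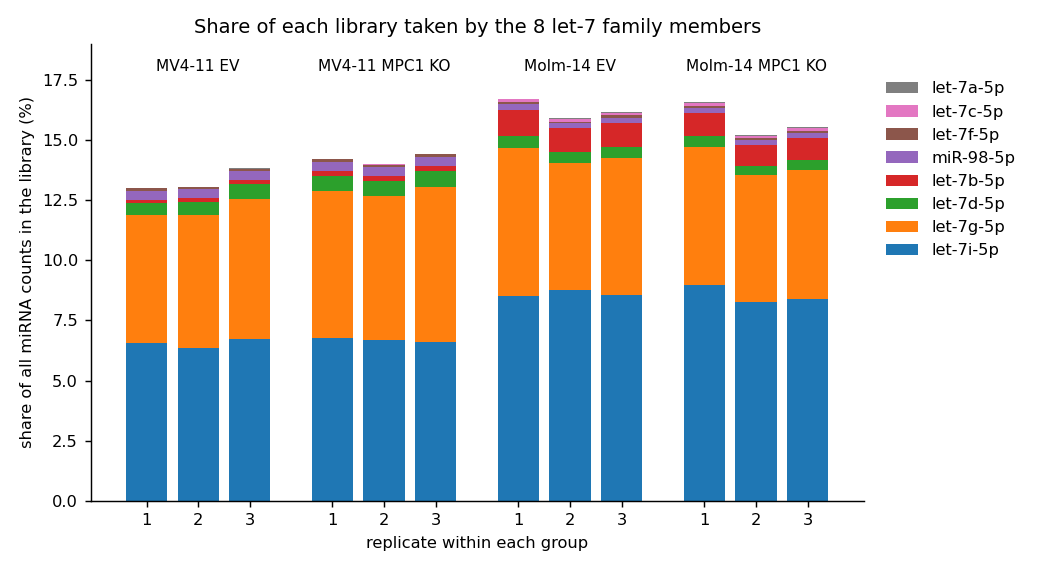
The y axis gives the percent of all miRNA counts of a library taken by each of the 8 members, stacked, and the x axis the 3 replicates of each group. The 6 MV4-11 bars end between 13.0% and 14.4% and the 6 Molm-14 bars between 15.2% and 16.7%, and let-7i-5p and let-7g-5p fill most of every bar.

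let-7i-5p and let-7g-5p, each from a single hairpin, made up between 87.7% and 91.3% of the family in every library. let-7i-5p was 49.2% ± 1.03 of the family in MV4-11 EV and 52.9% ± 2.12 in Molm-14 EV, and let-7g-5p 41.8% ± 0.863 and 35.2% ± 1.74 (SD, n = 3 each). let-7d-5p followed in MV4-11 EV with 4.17% ± 0.277, then miR-98-5p with 2.77% ± 0.0733 and let-7b-5p with 1.23% ± 0.0758 (SD, n = 3 each). In Molm-14 EV let-7b-5p held the third place with 6.29% ± 0.188, ahead of let-7d-5p with 2.93% ± 0.123 and miR-98-5p with 1.27% ± 0.0492 (SD, n = 3 each). let-7c-5p and let-7f-5p also changed places, with 0.0433% and 0.719% in MV4-11 EV against 0.732% and 0.510% in Molm-14 EV. let-7a-5p was last in each group, at 0.0312% in MV4-11 EV and 0.150% in Molm-14 EV. MPC1 KO did not alter this order in either line, and in none of the 4 groups did the TMM CPM of 2 members next to each other in it overlap between libraries.

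The low places of let-7a-5p and let-7f-5p are not read as levels against the other members. Both match several places of the genome, and how reads with several matches were counted is not given in the sources used here. There were 20 miRNAs with 2 or more loci in RefSeq and counted opposite arms of 1 locus each. Of these, 11 had fewer counts over the 12 libraries than their opposite arms and 9 had more. Among those below, miR-16-5p had 1320 counts against 143418 for its 3p arms, miR-181a-5p 34 against 85962, and miR-24-3p 157 against 38827 for its 5p arms. Among those above, miR-92a-3p had 282341 against 26532 for its 5p arms, miR-128-3p 163927 against 3928, and miR-181b-5p 18224 against 6082 for its 3p arms. let-7f-5p lay above its 3p arms as well, with 57238 counts against 18892. let-7a-5p had 8790 against 3005 of let-7a-3p, which has 2 loci itself, so that this pair is not among the 20. let-7i-5p had 4691383 counts. Whether reads with several matches were left out was not tested. All libraries were counted alike, but which reads make up the counts of let-7a-5p and let-7f-5p is not known. Comparisons of these members between groups carry this limit as well. Among the 6 members with a single match the shares were close to those above, with let-7i-5p at 49.6% ± 1.09 and let-7b-5p at 1.24% ± 0.0751 in MV4-11 EV (SD, n = 3 each). This was bound to follow, since let-7a-5p and let-7f-5p held 0.0312% and 0.719% of the family in MV4-11 EV. It cannot show what the shares would be if reads of these members were missing from the counts.

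**Figure D2:**
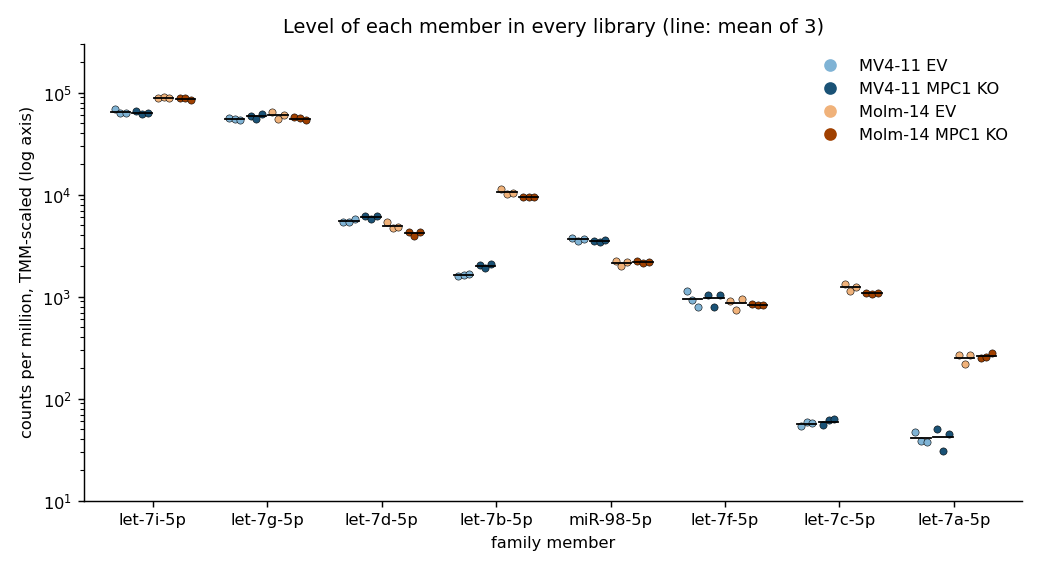
The y axis (log scale) gives the TMM CPM of each member and the x axis the members in order of abundance, with 1 point per library, coloured by group, and a line at the mean of 3 libraries. The Molm-14 points of let-7b-5p, let-7c-5p and let-7a-5p stand well above the MV4-11 points, those of miR-98-5p below, and EV and MPC1 KO points of 1 line lie close together.

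The lines differed most in let-7c-5p, let-7b-5p and let-7a-5p. By edgeR's quasi-likelihood test (adjusted p under 0.05, Benjamini-Hochberg over the 659 miRNAs) 4 of the 8 members were higher and 1 was lower in Molm-14 EV than in MV4-11 EV. The lines differ widely, since 61.9% of all miRNAs tested passed in this comparison, in either direction. For 5 members the EV libraries of the lines did not overlap, 4 above and 1 below, against 64.2% of all miRNAs tested. The median log2 fold change was 0.29 over the 8 members and 0.06 over all miRNAs tested, and these medians were 0.11 and -0.122 with upper-quartile factors, under which let-7g-5p turned from 0.11 to -0.06.

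let-7c-5p had 53.6, 59.8 and 57.9 CPM in the MV4-11 EV libraries and 1340, 1140 and 1240 in the Molm-14 EV libraries. This is a log2 fold change of 4.45 (standard error 0.11, edgeR adjusted p = 4.51e-21), or 21.8-fold. Its 3p arm had 0 counts in each of the 3 MV4-11 EV libraries and 168, 115 and 133 in the Molm-14 EV libraries. With a floor of 3 counts per library, let-7c-3p was at least 50.3-fold higher in Molm-14 EV. Its neighbour miR-99a-5p, from the hairpin 659 bp away, had between 33 and 44 counts in MV4-11 EV and between 32038 and 38805 in Molm-14 EV (log2 fold change 10.18, standard error 0.33, edgeR adjusted p = 7.43e-11).

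The few let-7c-5p counts of MV4-11 came with almost none of the 3p arm. Over the 6 MV4-11 libraries there were 1953 counts of let-7c-5p and 1 of let-7c-3p, whereas the 6 Molm-14 libraries had 33080 and 877. At the Molm-14 ratio of the arms, 51.8 counts of let-7c-3p would have gone with the MV4-11 total. This takes the ratio to be the same in both lines. For let-7b, let-7i and miR-98 it was higher in MV4-11, and for let-7d and let-7g the lines overlapped. A higher ratio in MV4-11 would lower the figure of 51.8. let-7c-5p is 1 base from let-7a-5p and 1 base from let-7b-5p, and the counts do not show which letters each read carried. Whether these MV4-11 counts came from MIRLET7C was not tested.

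let-7b-5p had 1580, 1650 and 1660 CPM in MV4-11 EV and 11400, 10100 and 10500 in Molm-14 EV. Its log2 fold change was 2.71 (standard error 0.09, edgeR adjusted p = 4.5e-18). The 3p arm let-7b-3p differed by more, with 33.0 ± 4.98 CPM in MV4-11 EV and 524 ± 26.1 in Molm-14 EV (SD, n = 3 each) and a log2 fold change of 4.0 (standard error 0.12, edgeR adjusted p = 2.35e-19). let-7a-5p, whose hairpin MIRLET7A3 lies beside MIRLET7B, had 47.6, 38.7 and 37.8 CPM in MV4-11 EV and 271, 220 and 270 in Molm-14 EV (log2 fold change 2.60, standard error 0.15, edgeR adjusted p = 3.2e-13). let-7a-3p, which RefSeq places in MIRLET7A1 and MIRLET7A3, followed with 3.33 (standard error 0.18, edgeR adjusted p = 3.37e-14). The counts do not separate the 3 loci of let-7a-5p.

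let-7i-5p, the most abundant member, had 69300, 62800 and 63100 CPM in MV4-11 EV and 89000, 90500 and 89100 in Molm-14 EV. The groups did not overlap and the log2 fold change was 0.46 (standard error 0.09, edgeR adjusted p = 0.000136). let-7i-3p went the same way with 1.0 (standard error 0.15, edgeR adjusted p = 3.63e-06). miR-98-5p was the member lower in Molm-14. It had 3780, 3500 and 3690 CPM in MV4-11 EV and 2260, 1990 and 2190 in Molm-14 EV, a log2 fold change of -0.77 (standard error 0.09, edgeR adjusted p = 4.69e-08). miR-98-3p did not pass (-0.22, standard error 0.15, edgeR adjusted p = 0.218). let-7f-2-3p, from the hairpin 850 bp from MIR98 in the same intron, was higher in Molm-14 by 0.67 (standard error 0.12, edgeR adjusted p = 1.97e-05).

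let-7g-5p, let-7d-5p and let-7f-5p did not pass. For let-7g-5p the log2 fold change was 0.11 (95% interval -0.08 to 0.31), for let-7d-5p -0.15 (-0.34 to 0.04), which passed without Molm-14 EV replicate 1 (edgeR adjusted p = 0.0412), and for let-7f-5p -0.14 (-0.41 to 0.12), and the libraries of the lines overlapped for each. let-7d-3p, let-7f-1-3p and let-7g-3p, their opposite arms, did not pass either. Of the 10 opposite arms listed for the family, 9 were in the count table and were tested. Of these, 5 were higher in Molm-14 EV and 0 lower, against 61.9% of all miRNAs tested that passed in either direction.

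**Figure D3:**
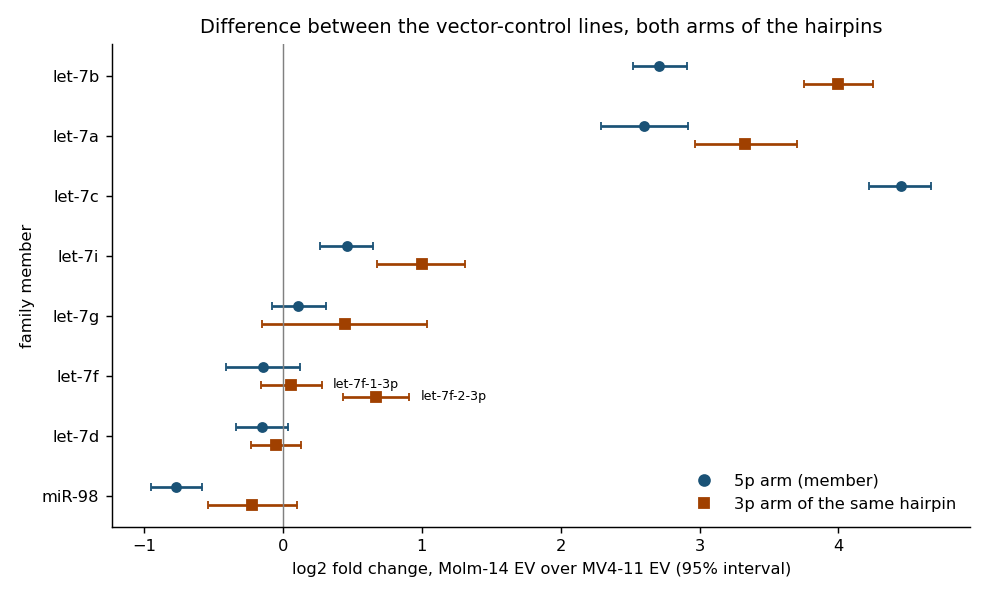
The x axis gives the log2 fold change of Molm-14 EV over MV4-11 EV with its 95% interval, for the 5p arm of each member (circles) and the 3p arms of the same hairpins (squares). let-7b, let-7a and let-7c lie far to the right of 0 and miR-98-5p to the left, and let-7c-3p is left out because it had 0 counts in every MV4-11 EV library.

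No change of a member with MPC1 KO was called in MV4-11. By edgeR's test (adjusted p under 0.05) 0 of the 8 members passed, against 3.03% of all miRNAs tested, and 1 had an unadjusted p under 0.05. DESeq2 and limma-voom each called 1, let-7b-5p. The shares of all miRNAs that these methods called, or that had an unadjusted p under 0.05, were not worked out for either line. Such counts are therefore not read as a result about the members. let-7b-5p had 1580, 1650 and 1660 CPM in EV and 2040, 1920 and 2070 in MPC1 KO libraries, which all lay above EV. Its log2 fold change was 0.30 (standard error 0.09, 95% interval 0.12 to 0.49, edgeR adjusted p = 0.0602). With 1 library left out its adjusted p lay between 0.00715 and 0.197, and it was under 0.05 when replicate 2 or 3 of the Molm-14 EV group was dropped, or replicate 1 of Molm-14 MPC1 KO. let-7d-5p was the other member whose MPC1 KO libraries all lay above EV, with 5370, 5340 and 5780 CPM in EV and 6210, 5790 and 6130 in MPC1 KO. Its log2 fold change was 0.14 (standard error 0.09, edgeR adjusted p = 0.57). These 2 of 8 stand beside 17.5% of all miRNAs tested that did not overlap between EV and MPC1 KO in MV4-11, in either direction. The other 6 members had log2 fold changes between -0.06 and 0.08, and their 95% intervals lay within -0.31 and 0.33.

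In Molm-14, 0 of the 8 members passed edgeR's test as well, against 6.83% of all miRNAs tested, and 2 had an unadjusted p under 0.05. DESeq2 and limma-voom called 0 here. The MPC1 KO libraries of 3 members, let-7b-5p, let-7c-5p and let-7d-5p, all lay below EV, and 27.2% of all miRNAs tested did not overlap in this comparison, in either direction. let-7d-5p had 5380, 4730 and 4790 CPM in EV and 4330, 3960 and 4280 in MPC1 KO, a log2 fold change of -0.24 (standard error 0.09, 95% interval -0.43 to -0.06, edgeR adjusted p = 0.108). let-7c-5p had 1340, 1140 and 1240 CPM in EV and 1090, 1060 and 1100 in MPC1 KO (-0.19, standard error 0.09, edgeR adjusted p = 0.238). let-7b-5p had 11400, 10100 and 10500 CPM in EV and 9480, 9470 and 9420 in MPC1 KO (-0.17, standard error 0.09, edgeR adjusted p = 0.287). let-7i-5p and let-7g-5p, which hold most of the family's counts, had -0.04 (95% interval -0.23 to 0.16) and -0.10 (-0.30 to 0.10). The median over the members was 0.04 in MV4-11 and -0.08 in Molm-14, beside medians of -0.00351 and -0.0128 over all miRNAs tested. With upper-quartile factors, which shifted the median of all miRNAs by -0.113 in MV4-11, the median over the members turned to -0.07 there and was -0.01 in Molm-14.

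The effect of MPC1 KO on let-7b-5p differed between the lines. Molm-14 minus MV4-11, its log2 fold changes differed by -0.48 (standard error 0.13, 95% interval -0.74 to -0.22, edgeR adjusted p = 0.0239), and let-7b-5p was the 1 of 8 members to pass, against 6.68% of all miRNAs tested. The call rests on the full set of libraries. With each library left out in turn the adjusted p lay between 0.00822 and 0.0801 and was above 0.05 in 7 of 12 fits, which dropped replicate 1 or 2 of EV or replicate 1 or 3 of MPC1 KO in MV4-11, and replicate 1 of EV or replicate 2 or 3 of MPC1 KO in Molm-14. With upper-quartile factors, which moved the median difference of all miRNAs by 0.185, the difference was -0.30 and did not pass (adjusted p = 0.202). let-7d-5p had the next largest difference, -0.38 (standard error 0.13, edgeR adjusted p = 0.0895), and passed without Molm-14 EV replicate 2 (0.0438). let-7i-5p had a difference of 0.00 with a 95% interval of -0.27 to 0.27. For comparison, let-7e-5p, which has the same seed and differs from let-7a-5p at U9G, had a log2 fold change of 1.43 in MV4-11 (standard error 0.11) and -0.44 in Molm-14 (standard error 0.10).

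**Figure D4:**
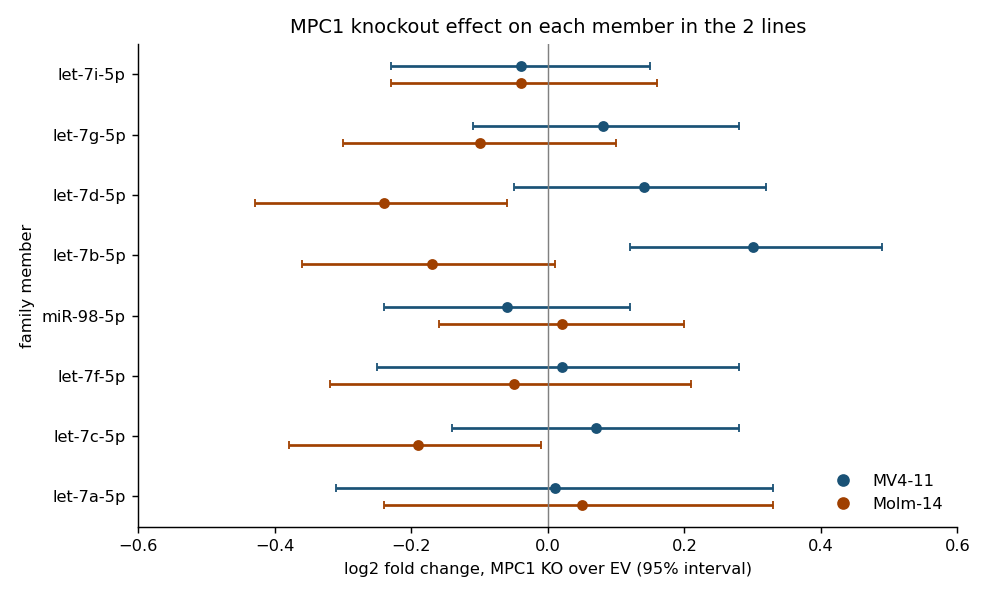
The x axis gives the log2 fold change of MPC1 KO over EV with its 95% interval for each of the 8 members, with MV4-11 and Molm-14 as separate points. let-7b-5p stands at 0.30 in MV4-11 and -0.17 in Molm-14, let-7d-5p at 0.14 and -0.24, and the 2 points of let-7i-5p coincide at -0.04.

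The opposite arms gave a second reading of the same hairpins. let-7b-3p had 28.8, 31.7 and 38.5 CPM in MV4-11 EV and 39.4, 39.3 and 43.3 in MPC1 KO, and 554, 508 and 510 in Molm-14 EV and 448, 495 and 457 in MPC1 KO. Its log2 fold changes were 0.31 in MV4-11 and -0.17 in Molm-14 and neither passed (standard errors 0.12 and 0.10, edgeR adjusted p = 0.163 and 0.386). The difference between the lines was -0.48, as for the 5p arm, and did not pass (standard error 0.16, edgeR adjusted p = 0.0725). Both arms come from 1 transcript in the same libraries and are not independent measurements.

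let-7d-3p was the 1 opposite arm of 9 tested that passed a comparison of MPC1 KO with EV. Of all miRNAs tested, 3.03% passed in MV4-11 and 6.83% in Molm-14, in either direction. In Molm-14 it had 1190, 1180 and 1160 CPM in EV and 837, 820 and 895 in MPC1 KO. It fell by 0.47 on the log2 scale (standard error 0.09, edgeR adjusted p = 0.000872), and it passed in all 12 fits that left out 1 library. In MV4-11 it had 1140, 1190 and 1320 CPM in EV and 1200, 1170 and 1230 in MPC1 KO, which overlapped (log2 fold change -0.02, standard error 0.09, edgeR adjusted p = 0.966). The difference between the lines was -0.45 (standard error 0.12, edgeR adjusted p = 0.0287), and when 1 library was left out it passed in 3 of 12 fits, those without MV4-11 EV replicate 3 or Molm-14 EV replicate 2 or 3, with an adjusted p of up to 0.118. It did not pass with upper-quartile factors (0.268), total counts (0.0526) or no filter on low counts (0.081). let-7a-3p had a log2 fold change of 0.42 in Molm-14 (standard error 0.14, edgeR adjusted p = 0.0791). miR-100-5p, the neighbour of MIRLET7A2, fell in both lines by 0.68 and by 0.82 on the log2 scale (edgeR adjusted p = 0.00316 and 0.000155), while let-7a-5p, whose counts combine 3 loci, had 0.01 (95% interval -0.31 to 0.33) and 0.05 (-0.24 to 0.33).

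The ratio of the 5p count to the 3p count within a library needs no scaling between libraries. For let-7d it was 4.72, 4.47 and 4.39 in MV4-11 EV and 5.18, 4.95 and 4.98 in MV4-11 MPC1 KO. In Molm-14 it was 4.51, 4.02 and 4.13 in EV and 5.17, 4.83 and 4.79 in MPC1 KO. All MPC1 KO libraries lay above all EV libraries of their line, in both lines. miR-98 did the same, with ratios between 115 and 134 in MV4-11 EV, 136 and 145 in MPC1 KO, 67.7 and 95.2 in Molm-14 EV and 96.5 and 104 in MPC1 KO. The ratio of miR-98 rests on between 91 and 257 counts of its 3p arm in a library. Over the 137 hairpins whose 2 arms were both tested and had a single locus, 4 (2.92%) had ratios higher in MPC1 KO without overlap in both lines, let-7d and miR-98 among them, and 0 had them lower in both. let-7b, let-7c, let-7g and let-7i showed no such shift. For let-7c the mean log2 ratio, with 0.5 added to each count, changed by -0.40 in MV4-11 and -0.14 in Molm-14, with overlap in both. In MV4-11 it rests on 0 or 1 counts of let-7c-3p in a library. These ratios were examined after their values had been seen and no test is given for them.

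Between the lines the arm ratio of let-7b differed most among the abundant members. It was between 43.0 and 54.6 in the 6 MV4-11 libraries and between 19.1 and 21.1 in the 6 Molm-14 libraries, with EV and MPC1 KO alike. For let-7i the ranges were 1910 to 3010 and 1510 to 1760. The lines did not overlap for 4 of the 6 members with a single match (let-7b, let-7c, let-7i and miR-98) and for 18.2% of the 137 hairpins. For this comparison 0.5 was added to each count. let-7c is among the 4 through this addition and the near absence of its 3p arm, which had 0 or 1 counts in each MV4-11 library. Its place there is not read as a difference in arm ratio. let-7g-3p was rare, with 331 counts over all libraries against 3562176 of let-7g-5p, so that its ratio, 10800 over all libraries, is imprecise. let-7d, at 4.70 over all libraries, was the single-match member with the most even arms.

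**Figure D5:**
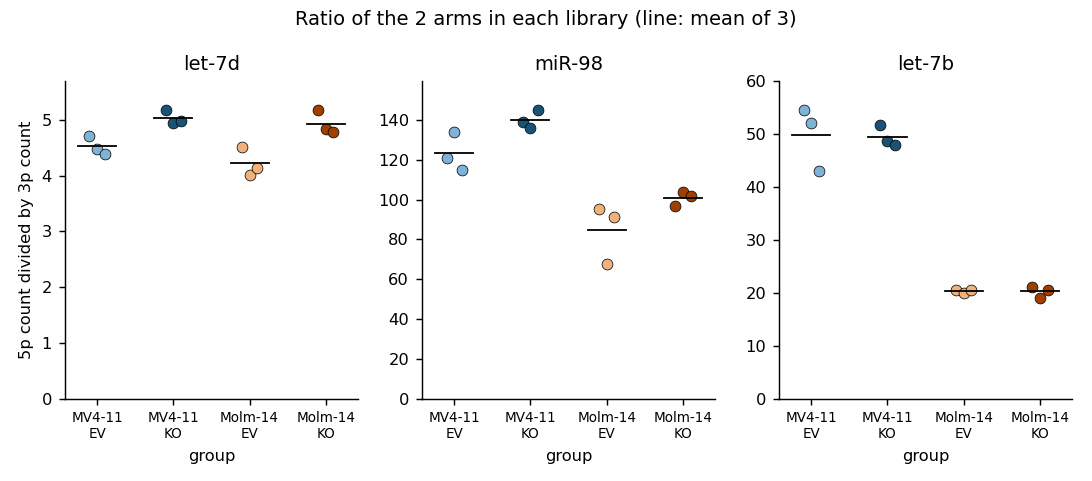
The y axes give the 5p count divided by the 3p count in each library for let-7d, miR-98 and let-7b, and the x axes the 4 groups, with a line at the mean of 3 libraries. The MPC1 KO points of let-7d and miR-98 lie above the EV points in both lines, and the let-7b points fall from between 43.0 and 54.6 in MV4-11 to between 19.1 and 21.1 in Molm-14.

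Replicates of the members agreed closely, though less so for let-7a-5p and let-7f-5p. Within a group the observed coefficient of variation reached 24.2% for let-7a-5p and 19.2% for let-7f-5p. The biological coefficient of variation from edgeR's dispersion was between 8.71% and 12.4% for the 8 members, with let-7a-5p and let-7f-5p the most variable, against a median of 14.2% over all miRNAs tested. That median covers miRNAs of all levels, and the members were not set against miRNAs of like abundance. Outside the family, the summed TMM CPM of the 8 members was followed most closely within both lines by miR-423-5p (Pearson's r = 0.867 over the 6 MV4-11 libraries and 0.833 over the 6 Molm-14 libraries). miR-191-5p (0.901 and 0.716) and miR-25-5p (0.934 and 0.694) came next among 159 miRNAs with a mean of at least 100 CPM. These correlations are descriptions over libraries that share scaling and genotype groups.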

How the data were processed

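Small RNA libraries were prepared by the authors with the NEBNext Multiplex Small RNA kit from total RNA of MV4-11 and Molm-14 cells. The authors deposited raw counts per mature miRNA, 1 column per library, without normalization. The submitters' processing notes name STAR 2.5.2, featureCounts 1.5.1 and GRCh38. How reads matching several loci were counted is not given in the sources used here, which matters for let-7a-5p (3 loci) and let-7f-5p (2 loci).

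Groups came from the sample labels, and all 12 libraries and columns were used. edgeR 4.0.16 in R 4.3.3 was run with filterByExpr (minimum count 10, 659 of 1204 miRNAs kept), TMM factors (0.94 to 1.08) and a robust quasi-likelihood fit of 4 group means, with Benjamini-Hochberg adjustment over all miRNAs kept and a threshold of 0.05. The script was tested on simulated data. CPM are counts per 1e6 of a library's TMM-scaled total, unless the library total is named. Depth was between 3870104 and 8683456 counts. Replicates of a group differed by more than counting noise (chi-square per degree of freedom between 13.7 and 189).

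Mature and hairpin sequences came from RefSeq (GRCh38.p14), matched by name, genome matches from an exact scan of GRCh38 and host genes from GENCODE. All 8 members were named, with their opposite arms, let-7e, miRNAs with the same seed, hairpins within 10 kb on the same strand, and the 3 miRNAs most alike in pattern. The sequence of let-7f-2-3p was not used here. Members and lists were chosen with earlier results of these data known. The alternatives were DESeq2 1.42.0, limma-voom (limma 3.58.1), other scalings and filters, edgeR on 1 line, a replicate block, other thresholds, leaving out each library, and other denominators of the shares. Restriction to members with a single genome match, the alternatives for let-7d-3p, the arm ratios and the comparison of arms with several loci were added after the data were seen.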

Additional observations from a re-analysis of the deposited data

Results flagged for a closer look

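The effect of MPC1 KO on let-7b-5p differed between the lines by a test of the difference itself. Its log2 fold change in Molm-14 less that in MV4-11 was -0.48, with all 3 MPC1 KO libraries above EV in MV4-11 and all 3 below EV in Molm-14. Of all miRNAs tested, 17.5% did not overlap in MV4-11 and 27.2% in Molm-14, in either direction. The change within each line did not pass (edgeR adjusted p = 0.0602 in MV4-11 and 0.287 in Molm-14). The call of the difference was lost in 7 of 12 fits that left out 1 library and with upper-quartile factors (-0.30, edgeR adjusted p = 0.202). let-7d-3p differed by -0.45 by the same test with all libraries, and passed in 3 of 12 fits that left out 1 library and not with upper-quartile factors (edgeR adjusted p = 0.268), with MPC1 KO libraries below EV in Molm-14 and overlapping EV in MV4-11. Groups of 3 libraries were not screened for outlying samples.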

How the results depend on the processing

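For Molm-14 MPC1 KO 0 members passed under every alternative run. Between the EV groups the 5 called members passed under every alternative run, joined by let-7d-5p with upper-quartile factors (-0.32), a mean of at least 100 counts and without Molm-14 EV replicate 1 (-0.24 in both), and by let-7f-5p with upper-quartile factors (-0.32), which gave between 5 and 7 members. For MV4-11 MPC1 KO the count of members past the threshold went from 0 to 1, let-7b-5p, with DESeq2, limma-voom, total counts, TMM without the let-7 family, a mean of at least 100 counts and an adjusted p under 0.1, and was 0 to 1 with 1 library left out. For the difference between the lines it went from 1 to 2, with let-7d-5p added, with DESeq2, a mean of at least 100 counts and an adjusted p under 0.1, to 0 with upper-quartile factors and an adjusted p under 0.01, and was 0 to 2 with 1 library left out. Without miR-21-5p in the total, the family share was 17.6%, 17.9%, 19.1% and 18.1% in MV4-11 EV, MV4-11 MPC1 KO, Molm-14 EV and Molm-14 MPC1 KO. Of 688 values of single members, 617 kept their direction and side of the threshold, 8 were no longer past it (all for the let-7b-5p difference), 15 newly passed and 48 changed sign, at a size of at most 0.11 for each reported value that changed sign. The cause of these changes was not tested. Depth limits most the arms with few counts in a library, let-7c-3p (0 to 170), let-7g-3p (14 to 42), let-7a-3p in MV4-11 (27 to 73), miR-98-3p (91 to 257) and, among the members, let-7a-5p in MV4-11 (158 to 391).

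In MV4-11 the log2 fold changes that turned sign were let-7a-5p at -0.03 (limma-voom), -0.10 (upper-quartile) and -0.02 (MV4-11 alone), let-7c-5p at -0.04, let-7f-5p at -0.10 and let-7g-5p at -0.03 (upper-quartile), let-7f-5p at -0.02 (MV4-11 alone), and let-7i-5p at 0.03 and miR-98-5p at 0.01 (total counts). In Molm-14 let-7f-5p was 0.02 and let-7i-5p 0.04 with upper-quartile factors. For the difference, let-7a-5p was -0.01 with total counts, let-7f-5p 0.12 with upper-quartile factors, and let-7i-5p -0.0022 with DESeq2 and RLE factors, -0.04 with total counts, -0.03 without the let-7 family and -0.01 with a mean of at least 100 counts. Between the EV groups let-7g-5p was -0.06 with upper-quartile factors.

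With 1 library left out, let-7a-5p ran from -0.13 to 0.18 in MV4-11, -0.02 to 0.11 in Molm-14 and -0.13 to 0.19 for the difference. let-7f-5p ran from -0.11 to 0.16, -0.12 to 0.02 and -0.21 to 0.07, let-7i-5p from -0.07 to 0.03, -0.03 to 0.0021 and -0.06 to 0.05, and miR-98-5p from -0.10 to 0.01, -0.0041 to 0.07 and -0.01 to 0.13, in the same order.

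Deviations of same-numbered libraries from their group means had r of 0.0948, -0.0789 and -0.127 in MV4-11 and -0.0255, 0.116 and 0.0325 in Molm-14. Pairs with different numbers had r between -0.139 and 0.198. With 3 libraries per group this cannot show whether same-numbered libraries were prepared together, which the labels do not state. With the replicate block, 0, 0, 1 and 5 members passed in MV4-11, in Molm-14, for the difference and between the EV groups, as without it, with -0.47 for let-7b-5p (edgeR adjusted p = 0.0397) and -0.45 for let-7d-3p (0.0433).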

Other observations

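let-7a-3p, let-7b-3p, let-7f-1-3p and miR-98-3p share the seed UAUACAA, which differs from that of let-7d-3p (UAUACGA). Of these 4, let-7f-1-3p was the most abundant in MV4-11 EV at 211 ± 17.7 CPM and let-7b-3p in Molm-14 EV at 524 ± 26.1 CPM (SD, n = 3 each). let-7d-3p, at 1220 ± 90.5 and 1180 ± 16.0 CPM (SD, n = 3 each), was the most abundant of the 9 opposite arms tested in both lines.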
